A study of Mus musculus with 3 samples.

Results

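The genes followed here are 8 of the 55422 genes in the count matrices: *Npy* and *Npy1r*, *Sstr2*, and *Adm*, *Calcrl*, *Ramp1*, *Ramp2* and *Ramp3*. They are 2 neuropeptide or peptide hormone signals and 6 genes for receptors or receptor subunits, found in the matrices by their symbols. Earlier results from these counts were known when they were picked, and the levels of *Npy* in metaphyseal stroma, of *Sstr2* in septoclasts and of *Ramp3* in metaphyseal endothelium chose those 3 genes. Their levels are therefore described and not tested. *Npy1r* was too low for any test, so that 4 members, *Adm*, *Calcrl*, *Ramp1* and *Ramp2*, were tested.

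The counts come from droplet single cell RNA sequencing of long bone from untreated C57BL/6 mice aged 3 weeks (C57BL/6J for the metaphyseal libraries, per the methods). Metaphyseal replicates 1 and 2 were prepared from dissected metaphysis of males, from which haematopoietic cells had been removed by magnetic depletion of lineage markers, CD45 and CD117. The third library, *Pdgfra-GFP*, holds GFP+ cells sorted by FACS from the metaphysis-epiphysis region of males heterozygous for a nuclear H2B-GFP reporter of *Pdgfra*, a platelet-derived growth factor receptor gene of mesenchymal cells. The reporter selects stromal cells and chondrocytes, so endothelial cells (ECs) of this library are few and were left out of the tests. Dissection, sort and library cannot be told apart between the 2 kinds of sample, and none of the labels says whether several animals were pooled. P-values thus measure the spread between libraries, of which ECs had 2 and other populations up to 3. This spread was estimated for each gene from the sums of all populations in the fit. P-values for ECs therefore draw also on the spread of the other populations.

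The libraries held 22082735 to 91747759 unique molecular identifiers (UMIs), each of which tags a captured RNA molecule. After the filters of the study 2382 and 2004 metaphyseal cells and 11242 *Pdgfra-GFP* cells remained, with a median of 5330 to 6426 UMIs per cell. Levels are given in CPM, the UMIs of a gene per 1000000 UMIs of a population in a library, and intervals are exact at the 95% level and cover counting error only. Barcodes with at most 100 UMIs, mostly near-empty droplets with free RNA, held 7.24 to 9.92% of the UMIs, and at most 10 barcodes were shared by any pair of libraries. The metaphyseal libraries are labelled as stromal cells, but also held many ECs.

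Cells were assigned to populations by marker genes, none of which is among the 8 genes. A cell was called septoclast-like (SC-like) with at least 4 of 7 septoclast markers, *Mmp9* among them, and the median SC-like cell carried 5 of them and 1 of 4 osteoclast markers. Metaphyseal mesenchymal stromal cells (mpMSC-like) needed 3 of 6 markers, *Postn* among them, and the median cell carried 4. Diaphyseal stromal cells (dpMSC-like), osteoblastic cells (OB-like), chondrocytes and arterial, metaphyseal and sinusoidal bone marrow ECs (aEC-like, mpEC-like and bmEC-like) were gated in the same way. Cells that met the EC, haematopoietic, chondrocyte, OB, mural or fibroblast markers were left out of the SC, mpMSC and dpMSC gates. The OB and chondrocyte gates did not leave out cells with SC, mpMSC or dpMSC markers. A cell that met both the mpMSC and the OB markers could thus count as OB-like but not as mpMSC-like. SC-like cells numbered 28, 18 and 261 in metaphyseal replicates 1 and 2 and *Pdgfra-GFP*, which is the order of libraries kept below. mpMSC-like cells numbered 55, 42 and 1037, and mpEC-like cells 284, 233 and 60.

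Neuropeptide Y, the product of *Npy*, is released with noradrenaline from sympathetic nerve endings and signals through G protein-coupled receptors such as the product of *Npy1r*. Osteoblasts are among its described targets in bone. Somatostatin receptor 2, encoded by *Sstr2*, is an inhibitory receptor of somatostatin and cortistatin. *Calcrl* encodes a receptor that reaches the cell surface only together with a receptor activity-modifying protein. With the product of *Ramp1* it binds calcitonin gene-related peptide (CGRP) of sensory nerves, and with that of *Ramp2* or *Ramp3* it binds adrenomedullin, the peptide encoded by *Adm* that acts on blood and lymph vessels.

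The promoters of the 3 genes chosen by their levels, and of *Calcrl* as the subunit shared by the RAMPs, are shown to place the genes and to allow a comparison of their sequence. They are the 250 bases before the start of the gene in RefSeq on GRCm38.p6, for which 7 of the 8 genes matched. The gene positions below are from Gencode, whose starts can differ from those of RefSeq. The windows of *Calcrl*, *Npy1r* and *Ramp3* therefore partly overlap the Gencode gene. *Npy* lies on chr6:49822710-49829507 on the plus strand with 4 exons, *Sstr2* on chr11:113619342-113626028 (plus), *Calcrl* on chr2:84330626-84425411 (minus) and *Ramp3* on chr11:6658521-6677475 (plus). The other genes lie on chr8:66697192-66706792 (*Npy1r*), chr7:110627661-110629820 (*Adm*), chr1:91179822-91225196 (*Ramp1*) and chr11:101246028-101259546 (*Ramp2*), all on the plus strand. Capitals mark matches on either strand to GGGCGG (GC box), TGACGTCA (cAMP response element), TATAA (TATA box) or CCGGAA (core of ETS factor sites).
*Npy*, chr6:49822460-49822709, plus strand: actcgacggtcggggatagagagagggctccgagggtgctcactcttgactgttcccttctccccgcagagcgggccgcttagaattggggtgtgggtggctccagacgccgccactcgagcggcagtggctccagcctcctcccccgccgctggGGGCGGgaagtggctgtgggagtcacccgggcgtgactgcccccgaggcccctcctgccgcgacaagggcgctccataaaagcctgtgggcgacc
*Sstr2*, chr11:113619077-113619326, plus strand: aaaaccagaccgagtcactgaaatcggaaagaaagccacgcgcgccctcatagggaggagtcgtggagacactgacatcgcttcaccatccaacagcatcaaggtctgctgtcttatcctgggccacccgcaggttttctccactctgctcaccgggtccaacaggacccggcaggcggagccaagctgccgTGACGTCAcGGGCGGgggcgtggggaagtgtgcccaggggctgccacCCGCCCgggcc
*Calcrl*, chr2:84425267-84425516, minus strand: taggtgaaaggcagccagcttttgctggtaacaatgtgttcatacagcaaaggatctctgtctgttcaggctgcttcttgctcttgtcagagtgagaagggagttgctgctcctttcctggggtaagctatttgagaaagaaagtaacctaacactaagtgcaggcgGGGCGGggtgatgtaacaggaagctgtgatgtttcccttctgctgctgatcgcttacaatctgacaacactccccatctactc
*Ramp3*, chr11:6658283-6658532, plus strand: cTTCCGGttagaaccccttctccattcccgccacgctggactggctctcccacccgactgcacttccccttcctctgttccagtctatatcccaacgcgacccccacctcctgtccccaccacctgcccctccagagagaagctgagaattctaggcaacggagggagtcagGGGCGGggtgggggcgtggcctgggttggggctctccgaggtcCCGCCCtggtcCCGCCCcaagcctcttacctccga

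All 4 promoters hold a GC box, a sequence present in 32.7% of 32851 promoters of this length. The box starts 95 bases before the RefSeq gene start in *Npy* and 83 bases before it in *Calcrl*, where it lies inside the Gencode gene. *Ramp3* has GC boxes at 78 and, on the opposite strand, at 35 and 24 bases, and a CCGGAA on the opposite strand at 249 bases, a motif found in 12% of promoters. *Sstr2* alone of the matched members holds TGACGTCA, at 58 bases and 1 base ahead of a GC box, and 1.55% of all promoters hold it. *Adm* has a TATA box at 27 and 28 bases, read on both strands of overlapping letters (22.8% of promoters hold one), and a GC box at 42 bases, while *Npy1r* and *Ramp1* hold none of the motifs in this window. A match is a run of letters and not evidence of binding.

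**Figure D1:**
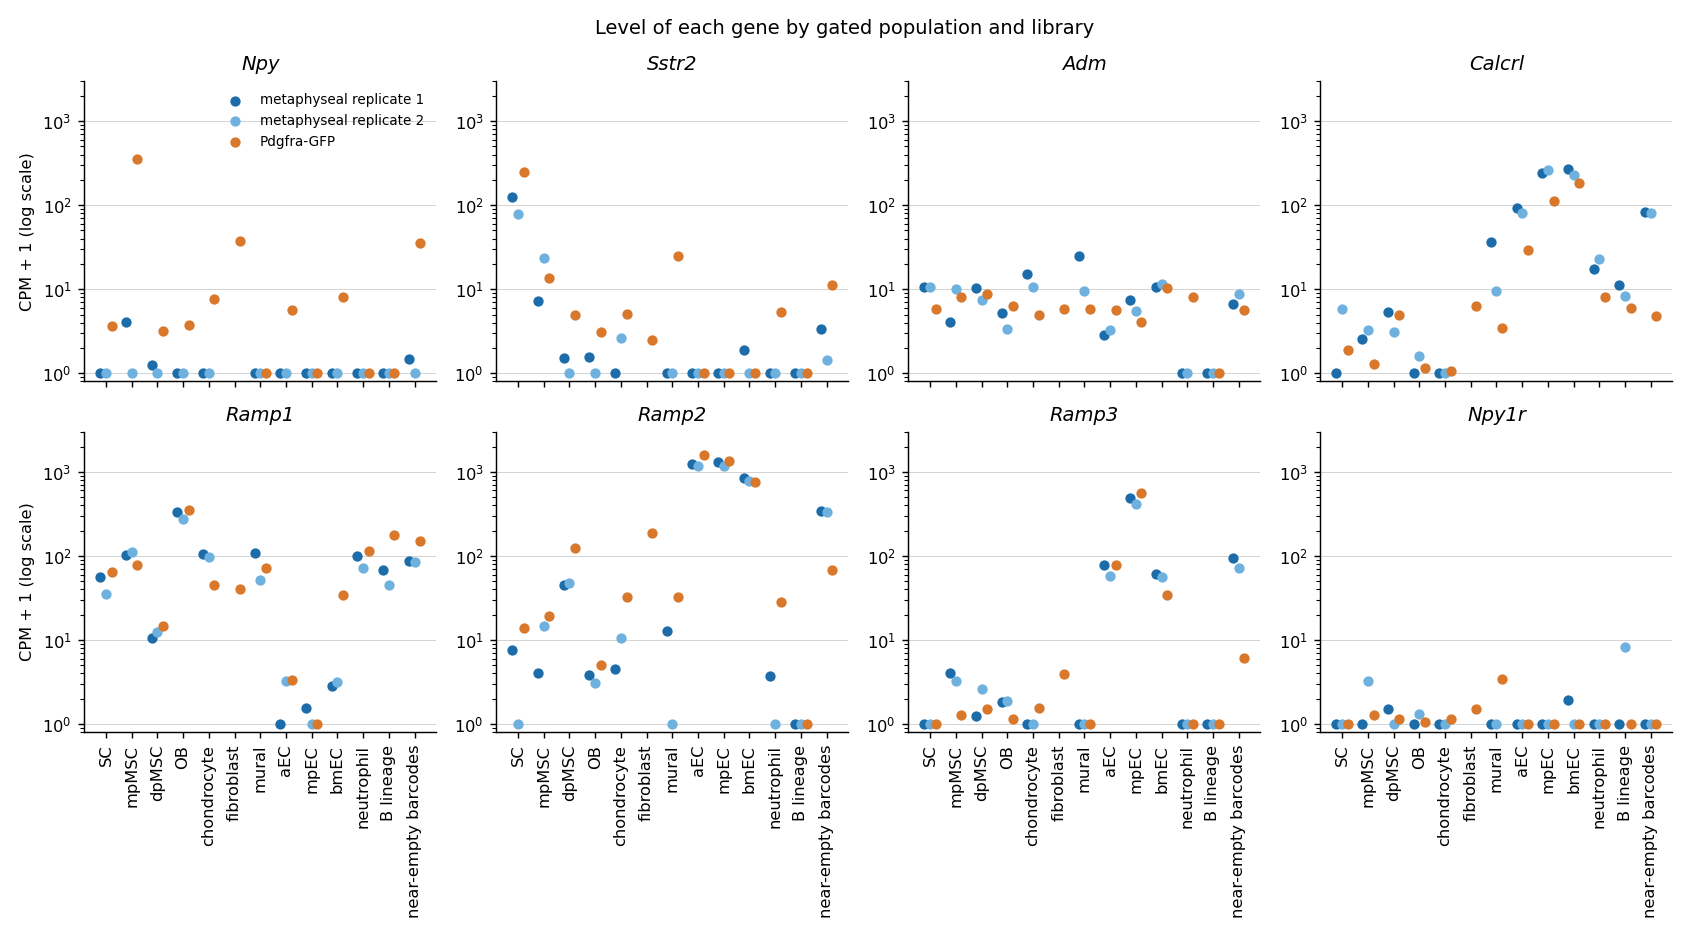
Levels of the 8 genes in gated populations and near-empty droplets of the 3 libraries, in CPM + 1 on a log axis, with 1 panel per gene and 1 symbol per library. ECs outside the 3 EC gates, macrophages and erythroid cells are not drawn. *Npy* stands out in mpMSC-like cells of the *Pdgfra-GFP* library only (349.7 CPM), *Sstr2* in SC-like cells of all 3 libraries, *Ramp1* in OB-like cells, and *Calcrl*, *Ramp2* and *Ramp3* in ECs.

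*Npy* RNA was found mainly in a small share of the mpMSC-like cells of a single library, sorted from the metaphysis-epiphysis region. In mpMSC-like cells its level was 3.08 CPM in metaphyseal replicate 1 (2 UMIs in 1 cell, 95% Poisson interval 0.373 to 11.1 CPM), 0 of 441717 UMIs in replicate 2, and 349.7 CPM in *Pdgfra-GFP* (2389 UMIs in 148 cells, 335.8 to 364 CPM). The mean of 117.6 CPM (SD 201, n = 3) is thus that of 1 library, and was 1.54 CPM without it. Over all cells the metaphyseal libraries held 3 and 0 *Npy* UMIs, against 3596 UMIs in 341 cells of *Pdgfra-GFP*. The lead of mpMSC-like cells for this gene rests on the sorted library. These cells are named by their markers, and their site within the metaphysis-epiphysis region is not known.

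Within the *Pdgfra-GFP* library 66.4% of the *Npy* UMIs lay in mpMSC-like cells. A further 915 UMIs (25.4%) lay in 97 cells that passed no gate, at 73.6 CPM. Fibroblast-like cells had 36.5 CPM, but 69 of their 75 UMIs were in 1 cell. The level was 6.56 CPM in chondrocyte-like, 2.74 in OB-like, 2.66 in SC-like and 2.17 CPM in dpMSC-like cells, and no *Npy* UMI was found in mural-like or mpEC-like cells of this library. The near-empty droplets held 34.5 CPM of *Npy*, above the levels of chondrocyte-like, OB-like, SC-like and dpMSC-like cells.

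The *Npy* transcript was concentrated in few cells. In *Pdgfra-GFP*, 148 of 1037 mpMSC-like cells (14.3%, exact binomial interval 12.2 to 16.6%) held an *Npy* UMI, at a median depth of 6390 UMIs per cell. Erythroid cells, which should lack the gene, held it in 1 of 50 cells (2%) at a median of 8124.5 UMIs. The share was 1.82% (0.046 to 9.72%) in metaphyseal replicate 1 and 0 of 42 cells in replicate 2, which allows a share of up to 7.14%, and after thinning every cell to 2000 UMIs the shares were 1.82%, 0 and 10.5%. Of the 1037 cells, 889 had no *Npy* UMI, 46 had 1 or 2, and the 102 cells with at least 3 held 97.5% of the UMIs, with up to 143 in a cell. Cycling mpMSC-like cells (65 cells) had 81.6 CPM from 50 UMIs and the other 972 cells 376 CPM from 2339 UMIs. With so few cells holding the transcript, this gap was not tested.

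The 102 mpMSC-like cells with at least 3 *Npy* UMIs were set beside the 889 without any. Median depth was 6625 and 6323 UMIs, 6 and 53 cells were cycling, a similar share of each, and 0 and 2 cells were called doublets. Both come from 1 library and were split by *Npy* itself, so the values describe these cells and no test was run. Genes were picked after the values were seen, from the 15 with the largest ratio in each direction. Candidates were 1731 genes with at least 100 CPM and present in at least 25% of cells on either side. *Bglap*, *Mmp9*, the gate markers and the members were looked up by name, without this filter.

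Among the genes with more RNA in *Npy*+ cells, *Omd*, which encodes the bone matrix proteoglycan osteomodulin, had 1534 against 418 CPM, *Col8a1*, a short-chain collagen gene, 1382 against 513 CPM, and the chemokine gene *Cxcl14* 1138 against 299 CPM. *Gdf10*, a growth factor gene of the BMP family, had 216 against 54.7 CPM, and the homeobox gene *Msx1* 149.9 against 33.6 CPM. *Apoe* (2529 against 899 CPM) and *S100b* (771 against 212 CPM) were also on this side. The scaffold gene *Mpp6* was found in 96.1% of *Npy*+ cells and 60.9% of the others.

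Other genes had less RNA in *Npy*+ cells. The collagenase gene *Mmp13* had 98.5 against 2259 CPM and was present in 34.3 and 72.8% of the cells. *Ibsp*, which encodes bone sialoprotein, had 157 against 1409 CPM, osteopontin (*Spp1*) 7301 against 20568 CPM and the collagen gene *Col1a1* 2300 against 7629 CPM. *Cadm1* (5.71 against 115 CPM), *Phlda1*, *Serpine2* (1037 against 3838 CPM) and *Junb* differed by a larger fold than *Col1a1* and *Spp1*. Osteocalcin (*Bglap*), a marker of the OB gate, was nearly equal, with 1946 against 2105 CPM. *Mmp9*, a septoclast marker, had 14.3 against 126 CPM. The reporter transcript H2B-GFP had 74.3 against 214 CPM, and among the members *Ramp1* had 32.8 against 80.8 CPM and *Sstr2* 0 against 14.7 CPM.

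The markers of the mpMSC gate also differed between these cells. The potassium channel gene *Kcnk2* had 1438 against 564 CPM, *Aspn* 1002 against 429 CPM and *Wif1*, a Wnt inhibitor gene, 3076 against 2218 CPM, whereas *Postn* had 514 against 849.5 CPM. Of 161 *Pdgfra-GFP* cells with at least 3 *Npy* UMIs, 48 passed no gate, which for mpMSC-like cells requires *Postn*. *Kcnk2* was present in 45 and *Wif1* in 44 of these 48 cells, and *Postn* in 13 and *Aspn* in 12. Their median was 3 of 6 mpMSC markers, against 4 in gated cells. *Col2a1*, a cartilage collagen gene, was found in 39 of the 48 ungated cells, but also in 90 of the 102 gated cells. *Acan*, another cartilage gene, was found in 3 of the 48. Their median was 1.5 of 7 chondrocyte markers, against 2 in the gated cells. *Pecam1* of ECs was found in 2 and *Ptprc* of haematopoietic cells in 1 of the 48.

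**Figure D2:**
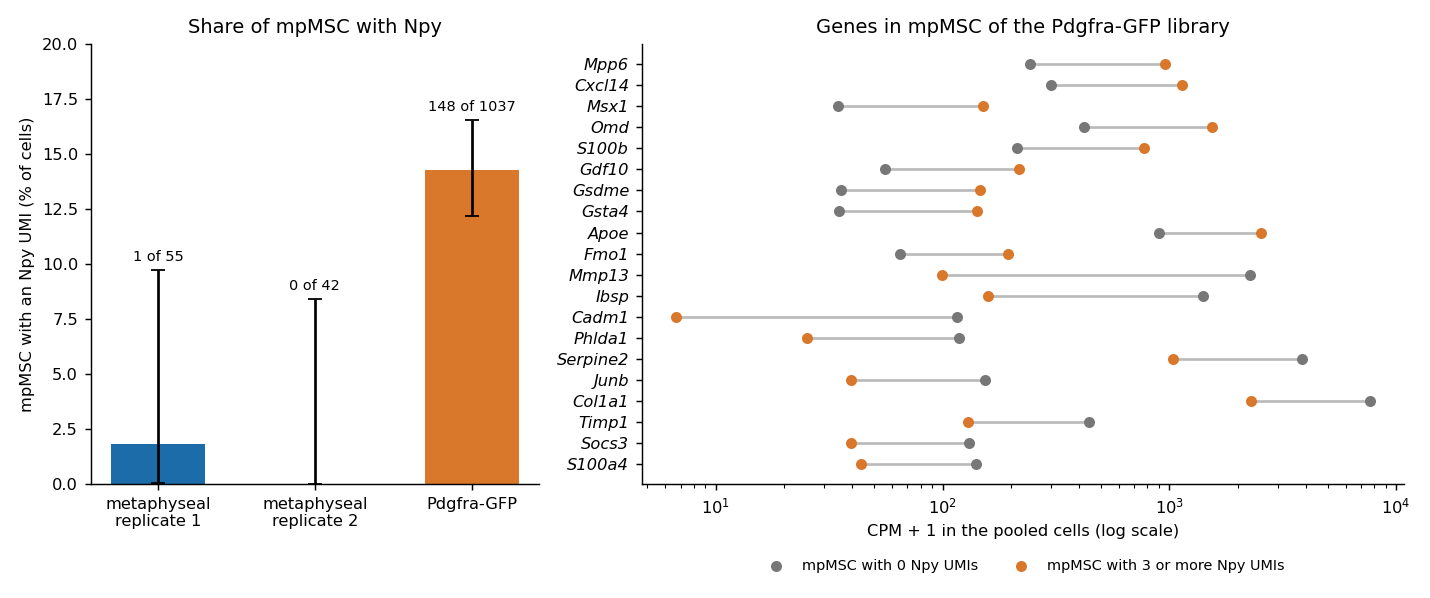
*Npy* in mpMSC-like cells. Left, percent of cells with an *Npy* UMI in each library with exact 95% binomial intervals (1 of 55, 0 of 42 and 148 of 1037 cells), and right, levels of 20 genes in CPM + 1 on a log axis in the 889 cells without and the 102 cells with at least 3 *Npy* UMIs of the *Pdgfra-GFP* library, where *Ibsp* and *Mmp13* lie lower and *Omd* and *Cxcl14* higher in the *Npy*+ cells.

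The receptors of neuropeptide Y were near the limit of detection. *Npy1r* had 5, 3 and 15 UMIs over all cells of the 3 libraries and at most 2 UMIs in any population. *Npy4r* had 1, 0 and 2 UMIs, and *Npy2r*, *Npy5r* and *Npy6r* had none, which allows up to 0.0398 CPM in the deepest library. The related peptides gave no *Pyy* UMI and 11, 13 and 114 UMIs of *Ppy*. In *Pdgfra-GFP*, *Ppy* reached 50.8 CPM in mural-like cells, with 21 UMIs in 7 of 60 cells.

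*Sstr2* was highest in SC-like cells of every library. Its level in SC-like cells was 123.7 CPM (95% Poisson interval 87.5 to 169.8), 77.4 CPM (44.2 to 126) and 250.1 CPM (229.9 to 271.6), from 38, 16 and 565 UMIs. In mpMSC-like cells it was 6.16, 22.6 and 12.6 CPM, from 4, 10 and 86 UMIs. The lowest SC-like value lay above the highest mpMSC-like value, and the means were 150.4 CPM (SD 89.4, n = 3) and 13.8 CPM (SD 8.31, n = 3).

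All other populations with values from each library were lower than SC-like cells. Mural-like cells had 0, 0 and 24.2 CPM (11.6 to 44.5 in *Pdgfra-GFP*). Their zeros come from 12 and 15 cells, where a limit of 3 counts is 35.4 and 25.5 CPM. dpMSC-like cells had 0.515, 0 and 3.99 CPM (3.00 to 5.19 in *Pdgfra-GFP*) and OB-like cells 0.566, 0 and 2.12 CPM (1.52 to 2.88). In *Pdgfra-GFP* the mural-like interval lay above both. The ranges of dpMSC-like and OB-like cells over the libraries overlapped. EC populations of the metaphyseal libraries had 0 to 0.906 CPM. SC-like cells, although few, held 73.1, 50.0 and 60.2% of all *Sstr2* UMIs of the libraries, and near-empty droplets held 2.33, 0.457 and 10.1 CPM.

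About every other SC-like cell carried the transcript. *Sstr2* was detected in 12 of 28 (42.9%, 24.5 to 62.8%), 10 of 18 (55.6%, 30.8 to 78.5%) and 132 of 261 SC-like cells (50.6%, 44.3 to 56.8%), at median depths of 9936, 11323 and 8379 UMIs. It was detected in 7.27, 14.3 and 5.01% of mpMSC-like cells, and in 0 of 50 erythroid cells of *Pdgfra-GFP*, which allows a share of up to 6%. Thinned to 2000 UMIs per cell, the SC-like shares were 17.9, 16.7 and 26.1% and the mpMSC-like shares 1.82, 2.38 and 1.98%. The transcript was uneven among SC-like cells: the 3, 2 and 26 cells with the most *Sstr2* held 60.5, 43.8 and 54.7% of its UMIs, with up to 12, 4 and 21 in a cell. Cycling SC-like cells of *Pdgfra-GFP* had 90.9 CPM (41 cells) and the other cells 292 CPM (220 cells).

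The ligands of this receptor were absent or rare in these cells. *Sst*, the somatostatin gene, had 0 UMIs in all 3 libraries, which allows up to 0.157, 0.182 and 0.0398 CPM over all cells. *Cort*, the cortistatin gene, had 4, 2 and 3 UMIs.

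**Figure D3:**
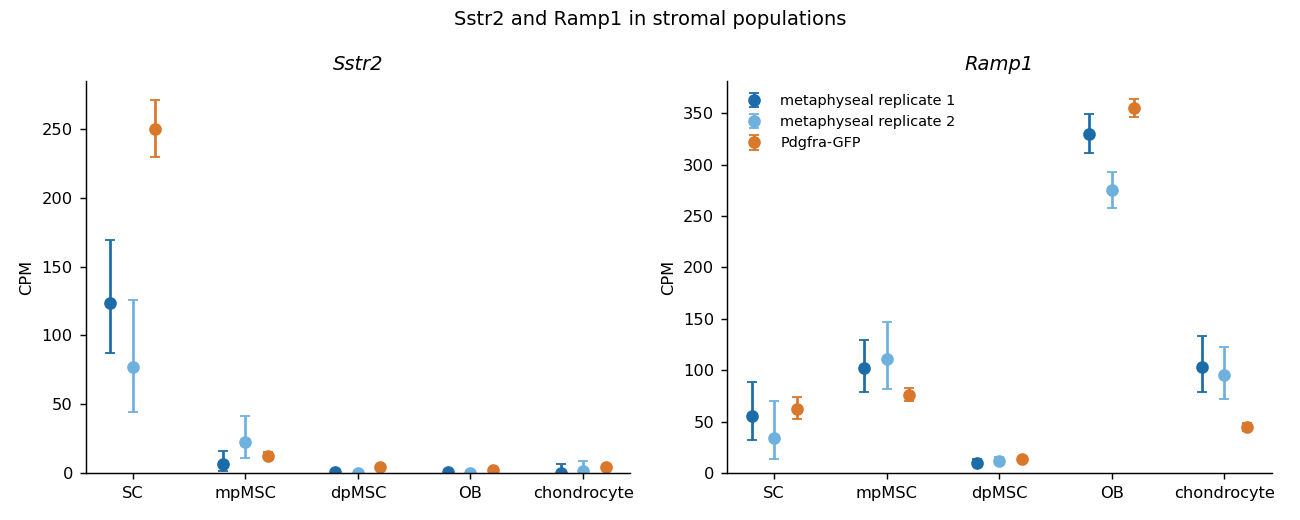
Levels of *Sstr2* and *Ramp1* in CPM with exact 95% Poisson intervals in SC-like, mpMSC-like, dpMSC-like, OB-like and chondrocyte-like cells of each library. The 3 SC-like values of *Sstr2* (77.4 to 250.1 CPM) lie above those of all other stromal populations, and the 3 OB-like values of *Ramp1* (275 to 355 CPM) above all others.

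*Ramp1*, the RAMP of the CGRP receptor, was highest in OB-like cells. They had 329.7, 275 and 355 CPM (mean 319.9, SD 41.0, n = 3), from 1164, 926 and 6856 UMIs. mpMSC-like cells had 102, 111 and 76.1 CPM (mean 96.2, SD 18.0, n = 3, but 55.2 after thinning), chondrocyte-like cells 103, 95 and 44.6 CPM, and SC-like cells 55.3, 33.8 and 62.4 CPM (mean 50.5, SD 14.9, n = 3). dpMSC-like cells were lowest of the stroma, with 9.52, 11.5 and 13.6 CPM. The OB-like, mpMSC-like and dpMSC-like values did not overlap.

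Tests across all genes placed these steps. Their fold changes include a scaling between sums that the printed CPM lack, so they can differ from ratios of CPM. Between mpMSC-like and OB-like cells, where 30.3% of 12498 genes were called, 2 of the 4 tested members were called, *Ramp1* and *Ramp2*. *Ramp1* was lower in mpMSC-like than in OB-like cells (log2 fold change -2.51, SE 0.28, edgeR adjusted p = 9.38e-08), and *Ramp2* was higher (1.14, SE 0.37, adjusted p = 0.0182). The *Ramp2* call compares low levels (3.08, 13.6 and 18.3 against 2.83, 2.08 and 4.04 CPM) and was lost when any library was left out (adjusted p = 0.0620 to 0.346), with DESeq2 (0.136) and without the library as a block (0.254).

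Between mpMSC-like and dpMSC-like cells, where 28.3% of genes were called, 3 of the 4 were called, *Calcrl*, *Ramp1* and *Ramp2*. *Ramp1* was higher in mpMSC-like cells (2.97, SE 0.31, edgeR adjusted p = 2.06e-08) and *Ramp2* lower (-2.76, SE 0.33, 3.84e-08), with 3.08, 13.6 and 18.3 against 44.5, 46.3 and 122 CPM. *Calcrl* was lower as well (-2.51, SE 0.63, 0.00226), but from 1, 1 and 2 UMIs in mpMSC-like cells, and the call was lost without *Pdgfra-GFP* (-0.71, 0.666) and after thinning (-2.39, 0.0585). Of the RAMP genes, metaphyseal stroma had more *Ramp1* and less *Ramp2* RNA than diaphyseal stroma.

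Between SC-like and mpMSC-like cells, where 3.03% of genes were called, none of the 4 tested members was called by edgeR or by DESeq2, and 1 had an unadjusted p under 0.05. This was *Ramp1* (-0.77, SE 0.34, adjusted p = 0.301). It was lower in SC-like cells past the threshold when only these populations were fitted (-0.66, 0.0387) or without *Pdgfra-GFP* (-1.31, 0.00758), so this result depends on the populations and libraries fitted together.

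By cell, *Ramp1* was detected in 89.7, 85.8 and 80.8% of OB-like cells, at median depths of 21662, 21049 and 11404.5 UMIs. In mpMSC-like cells it was found in 34.5, 33.3 and 28.7%, in SC-like cells in 39.3, 22.2 and 30.3%, and in dpMSC-like cells in 5.15, 6.14 and 4.77%. After thinning, the OB-like shares were 43.6, 38.9 and 42.8%. mpEC-like cells, with hardly any of the transcript, held it in 1 of 284, 0 of 233 and 0 of 60 cells. Outside stroma, *Ramp1* was present in neutrophils (mean 94.3 CPM, SD 22.2, n = 3), B lineage cells (95.8, SD 71.4) and mural-like cells (75.7, SD 28.1), levels that overlap those of mpMSC-like cells. Near-empty droplets held 85.6, 83.1 and 149.6 CPM, below the OB-like level of each library and near or above the levels of other populations, and the part of free RNA in those levels was not tested.

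**Figure D4:**
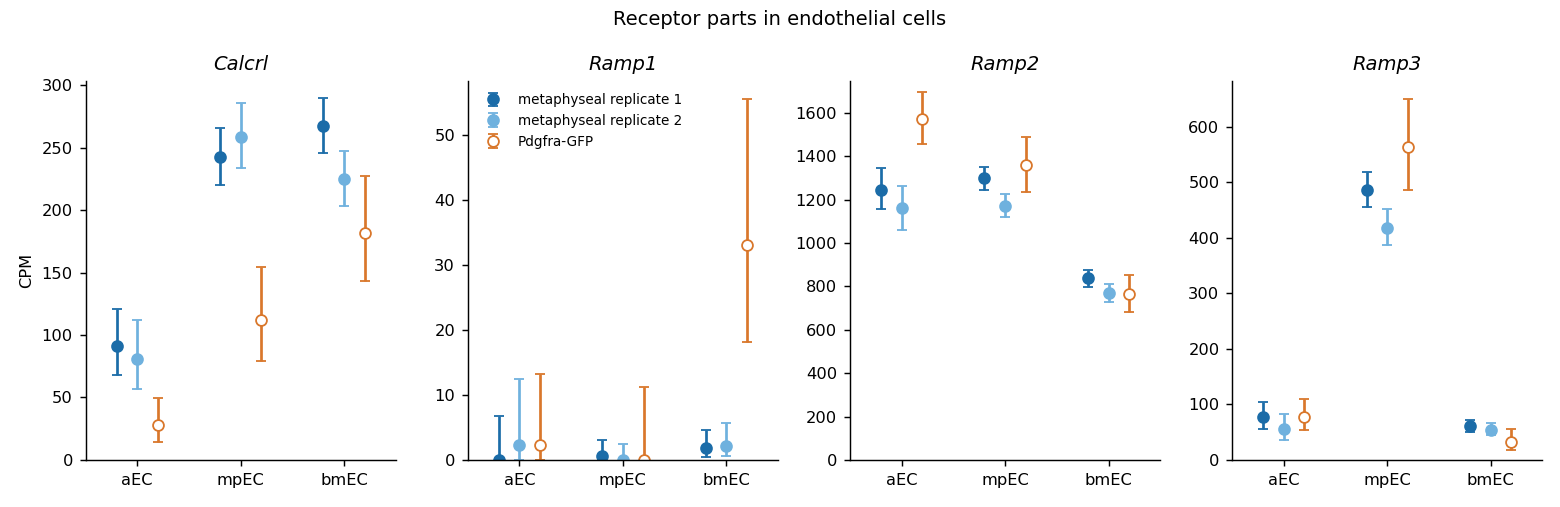
Levels of *Calcrl*, *Ramp1*, *Ramp2* and *Ramp3* in CPM in aEC-like, mpEC-like and bmEC-like cells, with filled symbols for the metaphyseal libraries and open symbols for *Pdgfra-GFP*. *Ramp3* is 418 to 564 CPM in mpEC-like and at most 77.9 CPM in aEC-like and bmEC-like cells, *Calcrl* is lowest in aEC-like cells, and *Ramp2* is lowest in bmEC-like cells.

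*Ramp3* was the member that marked metaphyseal endothelium. mpEC-like cells had 487 and 418 CPM in metaphyseal replicates 1 and 2 (mean 452, SD 48.5, n = 2), from 896 and 643 UMIs. aEC-like cells had 76.8 and 56.1 CPM, bmEC-like cells 60.2 and 54.7 CPM, and ECs outside these 3 gates 233 and 231 CPM. The mpEC-like values did not overlap with the others, while those of aEC-like and bmEC-like cells overlapped. With stricter gates the means of aEC-like and bmEC-like cells fell from 66.4 and 57.5 to 33.3 and 37.0 CPM. Stromal populations had at most 3.08 CPM and SC-like cells none, against 94.0 and 71.2 CPM in near-empty droplets of the metaphyseal libraries.

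The transcript was found in 84.9 and 80.3% of mpEC-like cells, in 28.2 and 25.4% of aEC-like cells and in 19.8 and 21.2% of bmEC-like cells, at median depths of 5565 to 6634 UMIs. OB-like cells held it in 1.82 and 1.85%. The shares kept this order after thinning, with 56.7 and 49.8% in mpEC-like cells, 11.5 and 11.1% in aEC-like cells and 9.66 and 8.08% in bmEC-like cells. Cycling mpEC-like cells had 385 and 372 CPM and the other mpEC-like cells 501 and 426 CPM. The few ECs of *Pdgfra-GFP* had 564 CPM in mpEC-like, 77.9 in aEC-like and 33.1 CPM in bmEC-like cells.

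*Calcrl*, the receptor itself, was shared by metaphyseal and sinusoidal ECs. mpEC-like cells had 242 and 259 CPM (mean 250.5, SD 11.7, n = 2), bmEC-like cells 267 and 225 CPM (246, SD 29.9) and aEC-like cells 91.5 and 80.7 CPM (86.1, SD 7.61). Near-empty droplets of these libraries held 81.0 and 79.5 CPM, near the aEC-like level, and the part of free RNA in that level was not tested. Between mpEC-like and aEC-like cells, where 6.92% of genes were called, *Calcrl* was the 1 called member of 4 (log2 fold change 1.56, SE 0.27, edgeR adjusted p = 7.14e-05). It was higher in mpEC-like cells in 2 of 2 libraries, but the call was lost without metaphyseal replicate 1 (1.68, 0.101) or 2 (1.44, 0.156), which leaves 1 library per EC population.

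Between mpEC-like and bmEC-like cells, where 9.83% of genes were called, 0 of the 4 tested members was called by edgeR or DESeq2, and 0 had an unadjusted p under 0.05. The *Calcrl* difference was -0.04 (SE 0.22, edgeR adjusted p = 0.993). *Calcrl* was detected in 66.5 and 70.8% of mpEC-like, 70.2 and 65.3% of bmEC-like and 43.6 and 41.3% of aEC-like cells, against 0 and 1.23% of OB-like cells. Thinned, the shares were 33.8 and 38.2%, 43.1 and 36.4%, and 15.4 and 11.1%.

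*Ramp2*, the RAMP of the vascular adrenomedullin receptor, was present in nearly every EC. aEC-like cells had 1246 and 1159 CPM, mpEC-like cells 1297 and 1172 CPM, and bmEC-like cells 836 and 769 CPM, with the transcript in 88.3 to 100% of the cells. The aEC-like and mpEC-like values overlapped, and the bmEC-like values lay below both. In the fit of all populations mpEC-like and bmEC-like cells did not pass the threshold (0.55, SE 0.27, edgeR adjusted p = 0.246). They did when only the 2 populations were fitted (0.59, 2.69e-10), with stricter gates (0.69, 0.0229) and without *Pdgfra-GFP* (0.59, 1.70e-06), so the call depends on which populations and libraries are fitted together. Outside ECs it was found in fibroblast-like cells (188 CPM, *Pdgfra-GFP* only) and dpMSC-like cells (44.5, 46.3 and 122 CPM), beside 340, 329 and 66.1 CPM in near-empty droplets.

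Between ECs and metaphyseal stroma 41.5% of genes were called. *Calcrl* (7.85, SE 0.45, edgeR adjusted p = 1.95e-16) and *Ramp2* (7.46, SE 0.34, 1.38e-18) were higher in ECs and *Ramp1* was lower (-6.58, SE 0.49, 1.30e-11), so that 3 of the 4 tested members were called. These folds set populations with a handful of UMIs against high ones, and their size depends on the prior count of the fit. In metaphyseal replicates 1 and 2, mpEC-like cells had 0.543 and 0 CPM of *Ramp1*. The highest EC value of these libraries was 4.57 CPM, in ECs of replicate 1 outside the 3 EC gates, which this test did not use. There, 10 of the 11 UMIs lay in 1 cell.

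The RAMPs were also compared within cells. *Calcrl* and *Ramp2* were found together in 65.8 and 69.5% of mpEC-like, 63.7 and 62.6% of bmEC-like and 43.6 and 41.3% of aEC-like cells. *Calcrl* and *Ramp3* were found together in 159 of 284 and 138 of 233 mpEC-like cells (56.0 and 59.2%), against 15.4 and 14.8% of bmEC-like and 16.7 and 14.3% of aEC-like cells. *Calcrl* and *Ramp1* were together in no mpEC-like cell and in 0.522 and 0.673% of bmEC-like cells. A joint share depends on the share of cells with each transcript, and no share expected from these was computed. *Ramp2* was in nearly every EC, so its joint share stays close to that of *Calcrl*. The contrast for *Ramp3* is not separate from its higher level in mpEC-like cells, which chose the gene. In OB-like cells *Calcrl* itself had 0, 2 and 3 UMIs, too few to read its pairing with *Ramp1*.

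Within mpEC-like cells of replicate 1, *Ramp3* was detected in 84.1% of *Calcrl*+ and 86.3% of *Calcrl*- cells, and in replicate 2 in 83.6 and 72.1%. Pairs of transcripts are found together more often in deeper cells, and median depths were 6262 and 6385 UMIs in mpEC-like, 5565 and 5768 in bmEC-like and 6544 and 6634 in aEC-like cells.

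**Figure D5:**
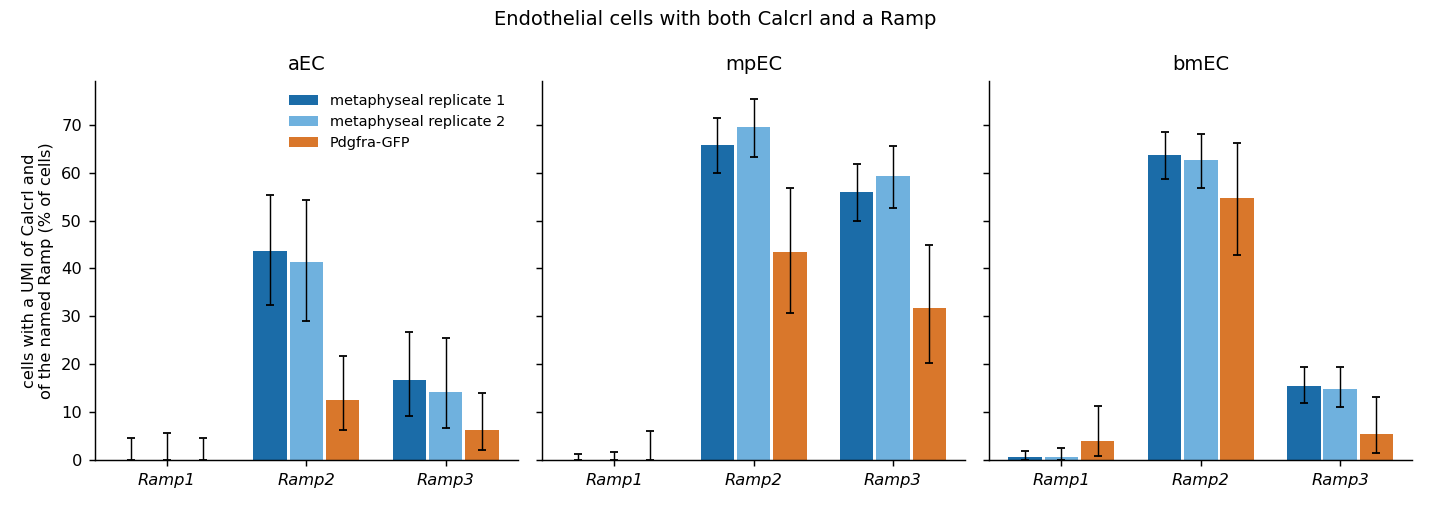
Percent of cells in which *Calcrl* was found with *Ramp1*, *Ramp2* or *Ramp3*, with exact 95% binomial intervals, in aEC-like, mpEC-like and bmEC-like cells of each library. *Calcrl* with *Ramp3* is at 56.0 and 59.2% in metaphyseal mpEC-like cells and at 14.3 to 16.7% in aEC-like and bmEC-like cells of these libraries, and *Calcrl* with *Ramp1* is at most 4.0%. These joint shares depend on the share of cells with each transcript.

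The peptide ligands of these receptors were low. *Adm* reached at most 23.6 CPM in any population, with 124, 93 and 413 UMIs over all cells. bmEC-like cells had 9.51 and 10.4 CPM, dpMSC-like cells 9.27, 6.54 and 7.83 CPM and mpEC-like cells 6.52 and 4.55 CPM. SC-like cells had 9.77, 9.67 and 4.87 CPM from 3, 2 and 11 UMIs, and chondrocyte-like cells 14.0, 9.67 and 3.99 CPM. Mural-like cells had 23.6, 8.48 and 4.84 CPM from 5 UMIs in all. The ranges of SC-like, chondrocyte-like and mural-like cells overlapped each other and those of the other populations named here. The bmEC-like values lay above those of dpMSC-like and mpEC-like cells, and the mpEC-like values just below those of dpMSC-like cells. In the metaphyseal libraries aEC-like cells were lower still, with 1.83 and 2.24 CPM from 1 UMI each (intervals up to 10.2 and 12.5 CPM). Near-empty droplets held 5.58, 7.76 and 4.66 CPM of *Adm*, near the levels of these populations, and the part of free RNA in them was not tested. *Adm* was called in 0 of 6 comparisons (edgeR adjusted p = 0.376 to 0.991), with 0 at an unadjusted p under 0.05 and 0 called by DESeq2.

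Other ligands were rare or seen mainly in the sorted cells. *Calca*, the gene of CGRP, had 2, 1 and 12 UMIs, *Calcb* 0, 0 and 1, and *Iapp* 0. *Adm2*, which encodes the adrenomedullin-related peptide intermedin, had 3, 3 and 211 UMIs. Of the 211 UMIs in *Pdgfra-GFP*, 188 lay in 146 chondrocyte-like cells, at 12.7 CPM, against 1.75 and 3.22 CPM from 1 and 2 UMIs in chondrocyte-like cells of the metaphyseal libraries. *Calcr*, the calcitonin receptor gene of osteoclasts, had 0, 0 and 3 UMIs.

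A list of 57 further genes of neuropeptides, their receptors and the enzymes that make or break them was counted in the same comparisons. In gated cells 42 were detected, 23 had at least 10 UMIs and 14 could be tested. Between SC-like and mpMSC-like cells 0 of the 14 were called by edgeR or DESeq2 (3 at an unadjusted p under 0.05), with a median log2 fold change of -0.49 against -0.03 over all genes. mpMSC-like cells differed from dpMSC-like cells in 7 of them (5 higher, 2 lower, against 28.3% of all genes), but in 3 by DESeq2, and from OB-like cells in 6 (4 higher, 2 lower, against 30.3% of all genes), or 4 by DESeq2. mpEC-like cells differed from bmEC-like cells in 3 (2 higher, 1 lower, against 9.83% of all genes), or 2 by DESeq2, and from aEC-like cells in 2, both higher (6.92% of all genes), or 1 by DESeq2. ECs differed from mpMSC-like cells in 9 (3 higher, 6 lower, against 41.5% of all genes), or 7 by DESeq2.

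Of the listed peptidase and peptide processing genes, *Cpe*, *Mme* and *Pam* were called between stromal populations and *Dpp4*, the gene of a peptidase that cleaves neuropeptide Y, was not. Its differences were smaller than their SE (mpMSC against dpMSC 0.78, SE 1.06, edgeR adjusted p = 0.646, and mpMSC against OB 0.34, SE 1.09, 0.867), so they are imprecise. *Cpe*, which encodes carboxypeptidase E of peptide maturation, had 425, 534 and 592 CPM in mpMSC-like cells, 806, 831 and 918 in OB-like and 10.3, 11.3 and 57.4 CPM in dpMSC-like cells (mpMSC against dpMSC 4.61, SE 0.66, edgeR adjusted p = 1.73e-05, and mpMSC against OB -1.42, SE 0.57, 0.0683). *Mme*, the gene of the peptide-degrading enzyme neprilysin, ran the other way, with 92.4, 161 and 59.6 CPM in mpMSC-like and 449, 438 and 278 CPM in dpMSC-like cells (-1.97, SE 0.27, 2.67e-06), and it was not called between mpMSC-like and OB-like cells (0.45, SE 0.28, 0.248). *Pam*, whose product amidates peptides such as neuropeptide Y and adrenomedullin, had 90.9, 81.5 and 123 CPM in mpMSC-like cells, between dpMSC-like (167, 192 and 175 CPM, edgeR adjusted p = 0.00832) and OB-like cells (23.8, 24.9 and 23.9 CPM, 7.37e-05). The *Pam* call against dpMSC-like cells held in 11 of 14 alternatives, and that against OB-like cells in all 14.

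Galanin and its receptor lay on different sides of the osteoblastic step. *Gal* had 144, 123 and 145 CPM in OB-like cells and 6.16, 2.26 and 2.93 CPM in mpMSC-like cells (mpMSC against OB -6.31, SE 0.37, edgeR adjusted p = 1.60e-13). *Galr2*, a galanin receptor gene, was higher in mpMSC-like than in OB-like cells (2.75, SE 0.48, adjusted p = 0.000109), with 12.3, 15.8 and 20.5 CPM. SC-like cells had 22.8, 29.0 and 41.2 CPM of *Galr2*, but were not called against mpMSC-like cells (0.95, SE 0.45, edgeR adjusted p = 0.371). dpMSC-like cells had 7.21, 7.07 and 6.23 CPM. mpMSC-like cells were called higher than these (1.24, SE 0.43, edgeR adjusted p = 0.0330), but in only 7 of 13 alternatives.

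Further listed genes were compared between EC populations. *Gpr182*, which encodes an atypical chemokine receptor of sinusoidal and lymphatic ECs once listed as an adrenomedullin receptor, had 379.5 and 357 CPM in bmEC-like cells, 75.0 and 80.0 CPM in mpEC-like cells and 0 in aEC-like cells (mpEC against bmEC -2.32, SE 0.22, edgeR adjusted p = 1.72e-09). *Nts*, the neurotensin gene, had 99.9 and 49.4 CPM in mpEC-like, 38.4 and 20.2 in aEC-like and 6.34 and 0 CPM in bmEC-like cells (mpEC against bmEC 4.41, SE 0.44, 4.04e-08). *Crcp*, known for its part in CGRP receptor function and in RNA polymerase III, was higher in mpEC-like than in bmEC-like cells (0.87, SE 0.22, 0.00715), with 46.7 and 34.5 against 23.1 and 19.2 CPM. The *Crcp* difference kept its sign in all 13 alternatives that tested it (0.80 to 0.94) and was called in 9. *Ackr3*, a scavenger receptor gene for chemokines and adrenomedullin, had 69.5 and 69.5 CPM in aEC-like cells, 8.15 and 12.4 in mpEC-like and 3.17 and 8.21 CPM in bmEC-like cells. For this gene mpEC-like cells passed the threshold neither against aEC-like (-2.75, SE 0.98, edgeR adjusted p = 0.121) nor against bmEC-like cells (0.81, SE 1.22, 0.807). The difference from aEC-like cells kept its sign in all 14 alternatives (-3.05 to -2.46) and was called in 3, so the call depends on the fit.

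The genes most like each member were found by Pearson's r of log2(CPM + 10) over 36 sums of populations and libraries, among 10348 genes. These sums share libraries and cell types, so r is a description and no p is given. *Sstr2* was most like *Wdr63* (r = 0.902), *Cd28* (0.894) and *Btla* (0.849), the latter pair being genes of lymphocyte co-receptors. *Ramp3* was most like *Ednrb*, the endothelin receptor B gene (0.986), *Ces2e* (0.979) and *Pcdh17* (0.977). *Calcrl* was most like *Exoc3l* (0.965), *Fam167b* (0.964) and *Unc45b* (0.964), and *Ramp2* most like *Ecscr* (0.952), *Palmd* (0.949) and *Cavin2* (0.947). *Ramp1* came with *Gsn* (0.813) and with *Serp1* (0.812) and *Sec61b* (0.782), genes of the secretory pathway. *Npy* had no close partner, with *Klhl33* at 0.664, *Gm36595* at 0.642 and *Gpha2* at 0.631.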

How the data were processed

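Per the labels and the methods, the authors trimmed reads with fastp 0.20, aligned them with STAR 2.7.3a (STARsolo) to mm10 with Gencode M23 plus the reporter sequence, and deposited unfiltered matrices of raw UMI counts, not normalized. Steps after the counts were run here in Python 3.11.15 with scanpy 1.11.5 and in R 4.3.3. Cells were kept with at least 1500 genes (metaphyseal) or 1000 genes (*Pdgfra-GFP*), at most 15% mitochondrial and 30% ribosomal UMIs, which left 4386 and 11242 cells, the numbers that the study's methods give for its filters. Doublets called by Scrublet (1.05, 0.599 and 1.45% of cells) were kept. The rates expected from the numbers of cells were 1.91, 1.60 and 8.99%, so doublets may remain uncalled, most of all in *Pdgfra-GFP*.

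Populations were gated by counting the markers present in a cell. The members and the gene lists were chosen with earlier results of these data known, and the gates were set after the marker distributions were seen and before the members were read. The UMIs of all cells of a population in a library (10 cells or more) were added up, and these sums were compared by the quasi-likelihood test of edgeR 4.0.16 with TMM scaling, the library as a block, EC sums from the metaphyseal libraries only, and Benjamini-Hochberg adjustment over 12498 genes (threshold 0.05). The printed CPM are not scaled by TMM. TMM factors computed over all genes were 0.563 to 0.701 for OB-like and 1.07 to 1.14 for mpMSC-like sums. Sums pair by library because each library was made from 1 cell suspension. Across genes, deviations from the group means correlated with r of 0.0734, 0.0556 and 0.411 between SC-like and mpMSC-like sums, 0.187 to 0.546 between mpMSC-like and dpMSC-like sums and 0.00808 between mpEC-like and bmEC-like sums. Shares were also computed with cells thinned to 2000 UMIs, and a count of 0 is given the limit of 3 counts. The tests were checked on simulated data.

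Named genes are the 8 members, the listed genes that passed a test with a mean of at least 10 CPM in a population of the comparison or that are a ligand or receptor of a member, and the 3 genes most like each member. *Dpp4* met none of these conditions and was named as a peptidase of neuropeptide Y. Genes of the comparison by *Npy* were added after their values were seen. The 14 alternatives include DESeq2 1.42.0. Gene positions are from Gencode M21, which uses the same build (GRCm38). Protein sequences were not used here.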

Additional observations from a re-analysis of the deposited data

Results flagged for a closer look

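The *Pdgfra-GFP* library was sorted for stromal cells, and its ECs entered no test, yet the members of the adrenomedullin receptors were found in its 60 mpEC-like cells. *Ramp2* had 1358 CPM, *Ramp3* 564 CPM and *Calcrl* 112 CPM there, against 66.1, 5.12 and 3.76 CPM in near-empty droplets of the library. The *Ramp2* and *Ramp3* levels lay above those of both metaphyseal libraries and the *Calcrl* level below them, and these differences were not tested.

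Cells of the same library that passed no gate, which no comparison uses, held 915 *Npy* UMIs in 97 cells, while all cells of the 2 metaphyseal libraries together held 3.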

How the results depend on the processing

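Of 194 values for 14 of the 18 tests of *Calcrl*, *Ramp1* and *Ramp2*, 176 kept their direction and their side of the threshold, 9 lost the call, 5 gained it and 4 turned, all 4 at differences near 0: *Ramp2* between mpEC-like and aEC-like cells fell to -0.0039 with DESeq2 size factors, -0.089 after thinning and -0.0038 with only those populations fitted, and *Calcrl* between mpEC-like and bmEC-like cells, -0.04, was 0.16 without metaphyseal replicate 1 (-0.22 to 0.16 over the left-out libraries). *Ramp2* between mpMSC-like and OB-like cells lost its call at 0.98 with DESeq2, at 1.32 with no replicate block, and at 0.91 to 1.40 with a library left out. *Calcrl* lost its call between mpMSC-like and dpMSC-like cells at -2.39 after thinning and -0.71 without *Pdgfra-GFP* (-2.99 to -0.71 over the left-out libraries), and between mpEC-like and aEC-like cells at 1.44 to 1.68 with a metaphyseal library left out. *Ramp1* between SC-like and mpMSC-like cells was called at -0.66 with only those populations fitted and -1.31 without *Pdgfra-GFP* (-1.31 to -0.58 over the left-out libraries), and *Ramp2* between mpEC-like and bmEC-like cells at 0.59 with only those populations, 0.69 with stricter gates and 0.59 without *Pdgfra-GFP* (0.56 to 0.59 over the left-out libraries). The other 4 tests, which rest on few UMIs and were called under no alternative, are *Calcrl* between mpMSC-like and OB-like cells (0.10 to 1.82), *Ramp1* between mpEC-like and bmEC-like cells (-5.42 to -0.79), and, with turned signs, *Calcrl* between SC-like and mpMSC-like cells (-1.74 to 1.90) and *Ramp1* between mpEC-like and aEC-like cells (-5.41 to 3.60). The causes were not tested. Tests of listed genes gave 247 values, of which 34 lost the call.

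Numbers of called genes were 379 (SC-like against mpMSC-like), 3537 (mpMSC against dpMSC), 3781 (mpMSC against OB), 1229 (mpEC against bmEC), 865 (mpEC against aEC) and 5190 (EC against mpMSC) of 12498 tested. After thinning, which left only 7420 genes to test, they were 245, 1784, 1904, 731, 489 and 2603. Without the pairing by library (no replicate block) they were 120, 2173, 2088, 516 and 470 for the first 5, and no other member changed its call. With only the populations compared they were 707 of 6490, 3422 of 10311 and 1925 of 8846 genes tested for SC against mpMSC, mpEC against bmEC and mpEC against aEC. SC against mpMSC had 789 of 28179 with no filter on low counts and 647 of 12224 with stricter gates. With a library left out they ranged over 118 to 253, 1732 to 3398, 1626 to 2840, 195 to 2727, 166 to 1694 and 3043 to 4672, and the lone EC library of such fits is assumed to vary like the other groups. DESeq2 called 1394 genes higher and 2087 lower in mpMSC-like than in OB-like cells, against 2019 and 1762, and its size factors moved the median over all genes between ECs and mpMSC-like cells from 0.053 to -0.066.

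Of 81 values for levels, 72 moved by less than 1 SD. After thinning, *Ramp1* in mpMSC-like cells had 55.2, *Ramp2* in aEC-like cells 1294, *Ramp3* in bmEC-like cells 52.1 and *Calcrl* in aEC-like cells 69.4 CPM. With stricter gates *Ramp1* in mpMSC-like cells had 66.7, *Ramp2* in bmEC-like cells 750.8, and *Ramp3* in mpEC-like, bmEC-like and aEC-like cells 548, 37.0 and 33.3 CPM. Depth limits *Npy1r*, *Adm* and the ligands, whose sums hold few UMIs.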

Other observations

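*Mpp6* and *Gsdme*, which were among the genes with the largest ratio in *Npy*+ mpMSC-like cells of the *Pdgfra-GFP* library, also lie near *Npy* on mouse chromosome 6, 280.734 kb and 359.381 kb beyond the end of *Npy*. *Gsdme*, a pore-forming gasdermin gene, had 146 CPM in the 102 *Npy*+ cells and 34.8 CPM in the 889 cells without *Npy*, and *Mpp6* had 954 and 243 CPM. Both genes were named for their ratio, their loci overlap each other, and ratios of other genes near *Npy* were not looked up. The cells come from 1 library, and no test was run.

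*Npy* was also seen in cycling chondrocyte-like cells of the *Pdgfra-GFP* library, at 45.1 CPM against 2.82 CPM in the other chondrocyte-like cells, but 54 of the 97 UMIs lay in 1 cell. A single EC outside the 3 EC gates held 24 *Npy* UMIs. *Ramp1* in bmEC-like cells of this library had 33.1 CPM from 14 UMIs, of which 11 lay in 1 cell, while the metaphyseal libraries had 1.81 and 2.19 CPM.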
